A study of Homo sapiens with 4 samples.

Results

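Of the open regions that ATAC-seq called in BJ fibroblasts without p63, 1856 had no peak of any strength in the same fibroblasts expressing ΔNp63α. ATAC-seq uses a transposase that cuts and tags accessible DNA, so that a pile of reads (a peak) marks an open region. The regions were selected on 2 measured values, their −log10 q in the control list (at least 10) and the absence of any overlapping peak, by as little as 1 bp, in the p63 list. They lay on chromosomes 1 to 22 and X, and they were 3.28% of the 56580 control regions (CTR regions) of that strength. Because these values chose them, the absence itself is a description and carries no test. They are called CTR-only regions here, which says that no peak was called under p63 and not that the DNA was closed.

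BJ cells are an established line of human foreskin fibroblasts. Both groups carried the rtTA activator and a doxycycline-inducible TRE3G construct, and in both the construct carried a Myc tag and KLF4, joined by a self-cleaving peptide. The control (CTR, labelled empty) expressed KLF4 alone and the p63 group expressed ΔNp63α together with KLF4, each after 72 h of doxycycline. KLF4 was therefore present on both sides of the comparison, and the lines were stable polyclonal pools. Each group had 2 samples, inductions of the same pool, but the deposited data hold 1 peak list per group made from both, so that no spread between replicates could be computed and no value below has a test. The intervals are 95% Wilson intervals, which cover counting error only. Every one of the 30 fibroblast matrix genes examined had at least 2 CTR regions within 50 kb of a start site. This was not particular to fibroblast genes. Among the keratinocyte genes examined, KRT5 had 4 such regions, KRT14 6, DSP 7 and TP63 4, while KRT1, DSG3, DSC3 and FLG had 0.

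p63 is a transcription factor of the p53 family, and its ΔNp63α isoform is the main form in basal keratinocytes, where it binds enhancers of epidermal genes. Chromatin that opens or closes between cell states often lies at distal enhancers bound by factors such as AP-1 and TEAD, both abundant in fibroblasts. CTCF is a zinc finger protein that binds a long, well conserved site, and with cohesin it anchors chromatin loops and domain borders.

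Of the 22 motifs searched, CTCF had the largest excess, in percentage points, in CTR-only regions over shared CTR regions of like GC content and strength, so the 6 best matches are shown. They are the CTR-only regions with the fewest mismatches to the 13-bp CTCF consensus and then the highest −log10 q, each printed as 41 bp of GRCh38 (hg38) in the orientation of the motif, which is in capitals. In PLEKHA7, an adherens junction gene, the sequence was intronic at chr11:16785681-16785721 on the plus strand. In APBB2, which encodes an adaptor of the amyloid precursor protein, it was intronic at chr4:40927804-40927844 on the plus strand. The site nearest to CWH43 was intergenic, at chr4:48963198-48963238 on the minus strand. The site of HID1 lay at chr17:74961745-74961785 on the plus strand, within 3 kb of a start site. The site nearest to TNS2, the gene of a focal adhesion protein, lay within SPRYD3 and within 3 kb of a start site, at chr12:53066096-53066136 on the plus strand. The site nearest to SNX19, a sorting nexin gene, was intergenic at chr11:130923466-130923506 on the plus strand.
PLEKHA7: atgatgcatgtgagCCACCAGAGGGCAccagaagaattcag
APBB2: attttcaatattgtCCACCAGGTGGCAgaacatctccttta
CWH43: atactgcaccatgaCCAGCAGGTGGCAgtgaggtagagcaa
HID1: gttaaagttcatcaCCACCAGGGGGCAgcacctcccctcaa
TNS2: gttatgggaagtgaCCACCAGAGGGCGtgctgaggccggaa
SNX19: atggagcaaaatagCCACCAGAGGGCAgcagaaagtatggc

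The summit sequences of the 4 strongest CTR-only regions show the range of what was found: 2 held a CTCF motif, and the other two held none of the 22 motifs searched within 50 bp of the summit, although the region in SEMA3A had an AP-1 motif within 100 bp. They are 101 bp around the summit on the plus strand of GRCh38, with motif matches in capitals, which are CTCF and the FOX word TGTTTAC in NXPE3 and CTCF and the E-box word CAGCTG in ITGA8. The strongest region was intergenic and its nearest protein-coding start site (the start of a protein-coding transcript) was that of HAAO, an enzyme of the kynurenine pathway, 175531 bp away, with the summit sequence at chr2:42968064-42968164. The others were intronic, in NXPE3 (chr3:101803347-101803447), SEMA3A (chr7:84231297-84231397) and ITGA8 (chr10:15585420-15585520).
HAAO: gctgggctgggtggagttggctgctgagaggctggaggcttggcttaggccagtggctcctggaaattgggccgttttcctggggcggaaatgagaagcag
NXPE3: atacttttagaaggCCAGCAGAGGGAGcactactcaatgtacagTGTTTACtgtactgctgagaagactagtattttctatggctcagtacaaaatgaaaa
SEMA3A: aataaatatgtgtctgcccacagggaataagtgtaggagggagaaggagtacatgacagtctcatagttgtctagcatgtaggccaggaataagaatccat
ITGA8: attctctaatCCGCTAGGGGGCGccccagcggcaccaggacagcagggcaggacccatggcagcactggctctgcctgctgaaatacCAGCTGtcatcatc

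The CTR-only regions were weak peaks. The number of reads piled up at each summit was recovered from the deposited fold and p-value, and its median was 18 in the CTR-only regions, with a range of 15 to 62. In 1332 of them (71.8%) the summit held 20 reads or fewer. The 47268 shared CTR regions, which overlapped a p63 peak with a −log10 q of at least 10, had a median of 38 reads. The 7456 weakened CTR regions, which overlapped only p63 peaks under 10, had a median of 20. The median fold over the local background was 7.80 in the CTR-only regions and 9.91 in the shared regions, and the median width was 318 bp against 614 bp. The genome-wide background was 1.18 reads for CTR and 1.13 for p63, and at that background a peak needed at least 6 reads in either list. In CTR, 919 of the 1856 regions (49.5%) lay at the genome-wide background and the others had a higher local one. The number of reads needed at a higher background was not computed. A CTR-only region could therefore keep a few reads under p63, or more on a higher local background, and still appear as absent.

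The share of CTR regions with no p63 peak fell steeply with strength. Of 3649 CTR regions with a −log10 q from 10 to 11, 557 (15.3%) had none. From 15 to 17 the share was 3.40%, and from 20 to 25 it was 0.925%. At 30 and above it was 2 of 20197 regions (0.00990%), the intergenic region near HAAO and the intron of NXPE3. The reverse comparison fell less with strength, since 12.0% of the 62233 p63 regions had no CTR peak, with 27.2% from 10 to 11 and still 3.13% (715 of 22847) at 30 and above. The p63 list was also the longer one, with 112294 peaks against 103700, and the part of list length in this difference was not tested. By reads, 22.6% of CTR regions with fewer than 16 reads had no p63 peak, against 0.0170% of those with 60 or more. Among regions just under the threshold, with a −log10 q from 9 to 10, 714 of 3857 (18.5%) had no p63 peak.

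**Figure D1:**
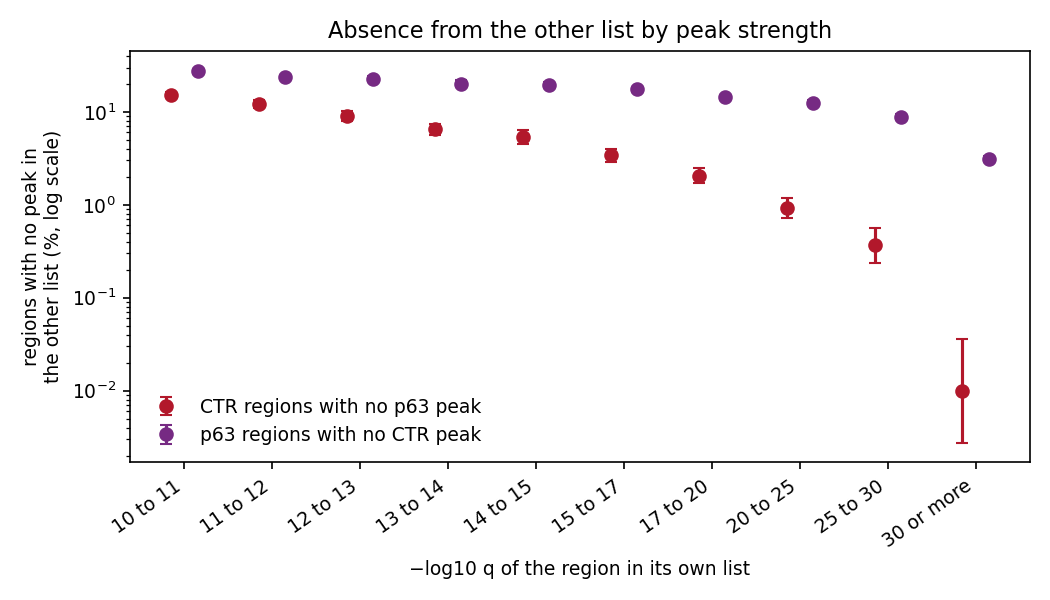
Share of regions with no peak in the other list (%, log scale, points with 95% Wilson intervals) by −log10 q in the region's own list. The CTR regions fall from 15.3% in the weakest bin to 0.00990% at 30 or more, and the p63 regions from 27.2% to 3.13%.

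The 3 members just inside the threshold had a −log10 q of 10.01, and they lay on chromosome 6, at TGM1 on chromosome 14 and near ITGAV on chromosome 2. The 3 regions just outside it had 9.99, on chromosomes 6, 3 and 17. Their distances to the nearest p63 peak overlapped, at 1529 to 4290 bp inside and 1888 to 7897 bp outside.

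Most CTR-only regions had p63 peaks in their neighbourhood. The median gap to the nearest p63 peak of any strength was 6810 bp, with quartiles of 2842 and 14585 bp. Only 13 (0.700%) had a p63 peak within 200 bp and 52 (2.80%) within 500 bp, whereas 1173 (63.2%) had one within 10 kb and 1786 (96.2%) within 50 kb. The p63 list held 109208 peaks on these chromosomes, and the shares at arbitrary positions were not computed. In the reverse direction the gap was similar, with a median of 6178 bp from p63 regions without a CTR peak to the nearest CTR peak. Among consecutive CTR regions, the CTR-only regions formed 1749 runs of a single region, 49 runs of 2 and 3 runs of 3. At a share of 3.28% of CTR regions, mostly single runs would arise without any particular spacing, and no expected number was computed.

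Comparisons of location and sequence were made with shared regions weighted to hold the same joint distribution of GC content and −log10 q, because the CTR-only regions were both weaker and poorer in GC. Around the summit (100 bp to each side) their GC content had a median of 44.3%, against 44.8% in weakened and 50.7% in shared regions. The share of CTR regions without a p63 peak fell from 6.73% in the tenth with the lowest GC content to 0.135% in the tenth with the highest.

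CTR-only regions were mainly distal and intronic. Their median distance to a start site in the GENCODE annotation was 10038 bp, against 4722 bp for shared regions, and to a protein-coding start site 33589 bp against 16937 bp. The weakened regions were nearly as distal, at 9371.5 bp (9014 to 9763 bp) and 33208 bp. Of the 1856, 405 (21.8%) lay within 3 kb of a start site, the window called promoter here. A further 920 (49.6%) were inside a gene and 531 (28.6%) between genes. The promoter share was 43.5% in all shared regions and 26.1% (25.1 to 27.1%) in the weighted ones. Within 1 kb of a start site it was 9.59% (8.33 to 11.01%) against 14.6% (13.8 to 15.3%) in the weighted shared regions. With width added to the weighting, these shares of the shared regions were 24.2% (23.1 to 25.5%) and 12.2% (11.3 to 13.2%), the first of which overlapped the interval of the CTR-only regions, which reached 23.8%. The intragenic share of the weighted regions was 47.3% and their intergenic share 26.6%, both within or next to the intervals of the CTR-only regions (47.3 to 51.8% and 26.6 to 30.7%). Most of the gap to the shared regions in promoter share was thus matched by GC content and strength, and most of what remained lay within 1 kb of start sites. The 1250 CTR-only regions inside a gene lay in long genes, with a median length of 164830 bp against 105293 bp for shared regions and 152955 bp (146537 to 159276 bp) for weakened ones, an interval that overlapped that of the CTR-only regions (148647 to 182688 bp).

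**Figure D2:**
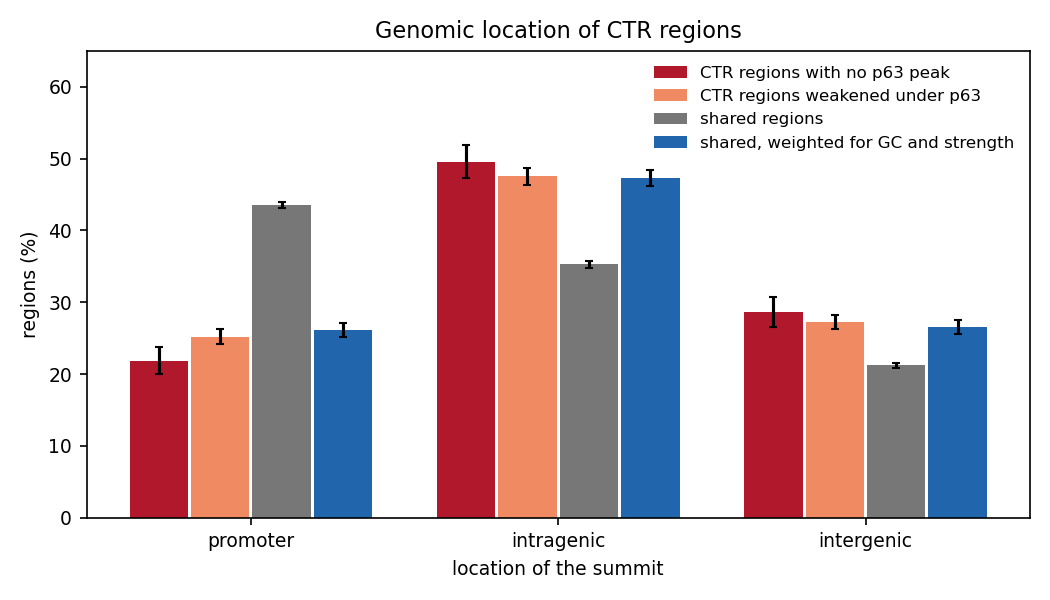
Share of CTR regions (%, bars with 95% Wilson intervals) whose summit lay within 3 kb of a start site (promoter), elsewhere in a gene (intragenic) or between genes (intergenic). The promoter bar of the CTR-only regions (21.8%) sits below that of shared regions (43.5%) and below the shared regions weighted for GC content and strength (26.1%).

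Against the weighted shared regions, summits in coding exons were an exception to the distal picture. There were 38 (2.05%, 1.495 to 2.80%), against 0.951% (0.760 to 1.19%) of the weighted shared regions. The share in weakened regions was 1.29% (1.06 to 1.57%), an interval that overlapped that of the CTR-only regions. Without weighting, 2.25% of shared regions had a summit in a coding exon. The strongest of the 38 was in NIPBL, the gene of the cohesin loader, with 27 reads and a −log10 q of 24.1. It was followed by NBPF14 at 23.9, SPEN, a transcriptional corepressor gene, at 21.5 and ANK2, which encodes an ankyrin, at 19.9. NBPF8 and NBPF1 came next, at 18.7 and 16.4. The NBPF genes and NPIPB15 belong to families of near-identical copies, so the placement of their reads is uncertain, and 4 of the 38 regions are of this kind. A CTCF motif was found in 9 of the 38 (23.7%, 12.99 to 39.2%), those of NBPF14, ANK2 and KMT2A, a histone methyltransferase gene, among them.

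At promoters, 114 of the 405 regions lay within 3 kb of a protein-coding start site, those of 113 genes. The strongest of the 114 was that of HID1, 1632 bp from the start site, with 41 reads and a −log10 q of 26.3. Next came CIDEB, the gene of a lipid droplet protein, with 28 reads and 21.9, and then the deubiquitinase gene USP2 with 32 reads and 20.2. The region of EIF2AK1, the gene of the heme-regulated eIF2α kinase, was 29 bp from a start site, with 23 reads and a −log10 q of 19.9. Its nearest p63 peak was 10160 bp away, the farthest of the 10 strongest promoter regions. The next 5 belonged to TEKT3, a tektin gene, RPS6KL1, TFDP2, the gene of an E2F dimerisation partner, LTO1 and CCDC153. Their −log10 q ran from 17.5 to 19.1 with 27 to 35 reads. Of these 9 promoter regions, HID1, CIDEB, TFDP2 and LTO1 held a CTCF motif, and TEKT3 held an AP-1 motif.

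Among the 10 strongest CTR-only regions anywhere, the summits of NXPE3, ITGA8, PLEKHA7, DIAPH1, SVIL and APBB2 held a CTCF motif within 100 bp. HAAO had the most reads, 62, on a high local background that gave a fold of 7.52. PLEKHA7 followed with 40 reads and a fold of 10.3. NXPE3 had 34 reads and a fold of 13.9, and its nearest p63 peak was 22235 bp away. The regions of DIAPH1, a formin gene, and SVIL, the gene of the actin-binding protein supervillin, had 31 and 30 reads. SVIL was the one of the 10 within 3 kb of a start site, 45 bp away, but it lay 10036 bp from the nearest protein-coding start and so is not among the 114 above. The intergenic region whose nearest protein-coding start site was that of the adhesion gene ALCAM, 113605 bp away, lay 26786 bp from another annotated start, of CBLB. It had 32 reads and an AP-1 motif, and the region near the tetraspanin gene TSPAN15 had 32 reads and neither motif.

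The 1856 regions fell to 1629 protein-coding genes by nearest start site at any distance, and 1436 of these had a single region. The number of genes that as many CTR regions would reach by their share alone was not computed. SEMA3A, TMEFF2, PRIM2, THUMPD2, OXR1 and GALNT7 had 4 each. Some lay far from the gene they were counted for, up to 282231 bp for TMEFF2, 475119 bp for PRIM2 and 259577 bp for THUMPD2, but at most 54816 bp for OXR1. SBF2, ANXA1, THADA and HMCN1 headed the 22 genes with 3. The 3 regions of ANXA1, an annexin gene, were all intergenic, had 17 to 27 reads and were 9364 to 50520 bp from a p63 peak. The 4 of OXR1, an oxidation resistance gene, were all intronic, with 15 to 18 reads. The 4 of GALNT7, which encodes an enzyme of mucin-type O-glycosylation, had 15 or 16 reads, at the lower end of the range.

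SEMA3A, a secreted repulsive guidance cue, had 4 CTR-only regions among 10 CTR regions within 50 kb of its start sites, no weakened region and 6 shared ones. By nearest protein-coding start site, it had the same 4 beside 5 weakened and 9 shared regions. The strongest, in an intron, had 34 reads and a −log10 q of 29.6, and its nearest p63 peak was 5858 bp away. A second intronic region had 15 reads and 10.3, with a gap of 7080 bp. The other two flanked the gene's start. One lay 1628 bp from a start site, with 15 reads and 10.03, and one 84 bp from another start site of the gene, with 18 reads and 12.9. Their nearest p63 peaks were 19503 and 17565 bp away, so that no p63 peak was called within 17 kb of these start sites. None of the 4 held a CTCF motif, and the strongest held an AP-1 motif.

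The gene lists describe how the regions fell among fibroblast and epidermal programmes, beside the 3.28% over all CTR regions. A region was counted for a listed gene if its summit lay within 50 kb of a start site, so some lay in or nearer to another gene. The region counted for TGFB2 was in an intron of RRP15, that for SRF in PTK7, and that for CXCL5 was nearest to PF4. Around the 30 fibroblast matrix genes, 5 of 245 CTR regions (2.04%, 0.875 to 4.69%) were CTR-only, 1 each near COL5A1, FN1, THY1, PDGFRB and FBLN2, against 6.33 that GC content and strength would give. The strongest was the USP2 promoter region near THY1, the gene of the fibroblast surface antigen CD90. No region near COL1A1, COL1A2 or COL3A1, the genes of the major fibrillar collagens, was CTR-only. The mesenchymal transcription factors had 3 of 147 (2.04%), near TBX15, EBF1 and RUNX1, against 5.45. The TGF-beta and BMP genes had 4 of 179 (2.23%), near TGFB2, TGFBR3, SMAD7 and LTBP1, against 4.51. The contractile and YAP target genes had 4 of 191 (2.09%), near CALD1, ANKRD1, WWTR1 and SRF, against 5.70. The 4 lists of mesenchymal function were thus all below the share over all CTR regions, with intervals that included it.

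The other lists spread around the same value. Axon guidance and adhesion genes had 10 of 183 regions (5.46%, 2.99 to 9.77%), against 7.07 that their GC content and strength would give. Beside SEMA3A these were single regions of SEMA3D, SEMA5A, NRP2, PLXNA2, SLIT2 and NTN4, the genes of further guidance ligands and receptors. Integrin genes had 5 of 133 (3.76%), with 2 of 6 CTR regions near ITGA8, 2 of 7 near ITGAV and the single CTR region of ITGA9. The integrin list had the highest ratio to the number its GC content and strength would give (2.82), at 1.77, and the mesenchymal transcription factors had the lowest, at 0.550. Inflammatory genes had 4 of 98 (4.08%), near CXCL1, CXCL5, PTGS2 and ICAM1, against 3.38. WNT genes had 4 of 133 (3.01%), near FZD8, ROR2, RYK and TCF4, against 5.10. Cell cycle genes had 2 of 114 (1.75%), near CCND1 and CCND3, against 2.88. Keratinocyte genes had 7 of 183 (3.83%, 1.87 to 7.68%), against 5.43. These were 3 of 18 CTR regions at LAMA3, the gene of a laminin-332 chain of the epidermal basement membrane, 3 of 11 near TGM1, the transglutaminase of the cornified envelope, and 1 at GRHL3. Those counted for TGM1 included the CIDEB promoter region above and a region nearest to RABGGTA. The LAMA3 regions had 17 or 18 reads and were 5732 to 21345 bp from a p63 peak. Every list interval included 3.28%.

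By chromosome, the share of CTR regions without a p63 peak ran from 1.79% on chromosome 16 to 4.99% on chromosome 4. Chromosome 4 had 136 against 111 expected from GC content and strength, and chromosome 5 had 134 against 109. Chromosome 7 had 112 against 91.6. Chromosome 16 had 34 against 45.2, chromosome 21 had 13 against 22.1 and chromosome X 32 against 41.6. Of windows of 1 Mb, 840 held 1 CTR-only region and 2 held 5, the most. These were a window of chromosome 18 with DLGAP1, MYL12A and TGIF1, where 5 of 41 CTR regions were CTR-only, and one of chromosome 4 with GALNT7 and SCRG1, where 5 of 16 were. Windows with 4 included those of MCHR2 and SIM1 on chromosome 6, of HK1 and COL13A1 on chromosome 10 and of SEMA3A on chromosome 7. Another CTR-only region lay within 50 kb of 5.93% (4.94 to 7.09%) of the CTR-only regions, and within 50 kb of 9.53% (8.91 to 10.2%) of the weighted shared regions. A p63 region without a CTR peak lay within 10 kb of 8.94% (7.73 to 10.3%) of them, against 7.18% (6.63 to 7.76%), and within 50 kb of 28.1%, against 32.1%.

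The CTCF motif was more frequent in CTR-only regions than in any group they were compared with. A match to the CTCF consensus with at most 1 mismatch lay within 100 bp of the summit in 379 CTR-only regions (20.4%, 18.6 to 22.3%). The share was 10.9% in weakened regions, 9.20% in shared regions and 9.64% (9.01 to 10.3%) in the weighted shared regions. With width added to the weighting it was 12.4% (11.5 to 13.4%). It was 5.14% (4.39 to 5.998%) in p63 regions without a CTR peak, weighted to the same GC content and strength. Windows 2 kb beside the CTR-only regions held it in 0.647%. The share in CTR-only regions exceeded the weighted one on 22 of 23 chromosomes. Viewed from the motif, 6.63% of the 1765 CTR regions with a perfect match and 6.93% of the 3778 with 1 mismatch had no p63 peak, against 3.13% with 2 mismatches and 2.22% with 3. The share did not keep falling, and was 3.20% with 4 mismatches and 5.43% (4.59 to 6.42%) with 5.

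The CTCF share rose with the strength of the CTR-only regions and not with that of the others. It was 17.1% (14.2 to 20.4%) at a −log10 q from 10 to 11, 21.6% from 12 to 15, 23.6% from 15 to 20 and 34.9% (29 of 83, 25.6 to 45.7%) at 20 and above. In shared regions it was 12.9% in the weakest bin and 7.21% in the strongest, and in p63 regions without a CTR peak 5.90% and 2.27%. The motif share was alike in the promoter (22.5%), intragenic (18.3%) and intergenic (22.6%) regions, whose intervals overlapped. CTR-only regions with the motif were narrower than those without, with a median of 297 bp against 327 bp, and richer in GC, with 47.3% against 43.3%.

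**Figure D3:**
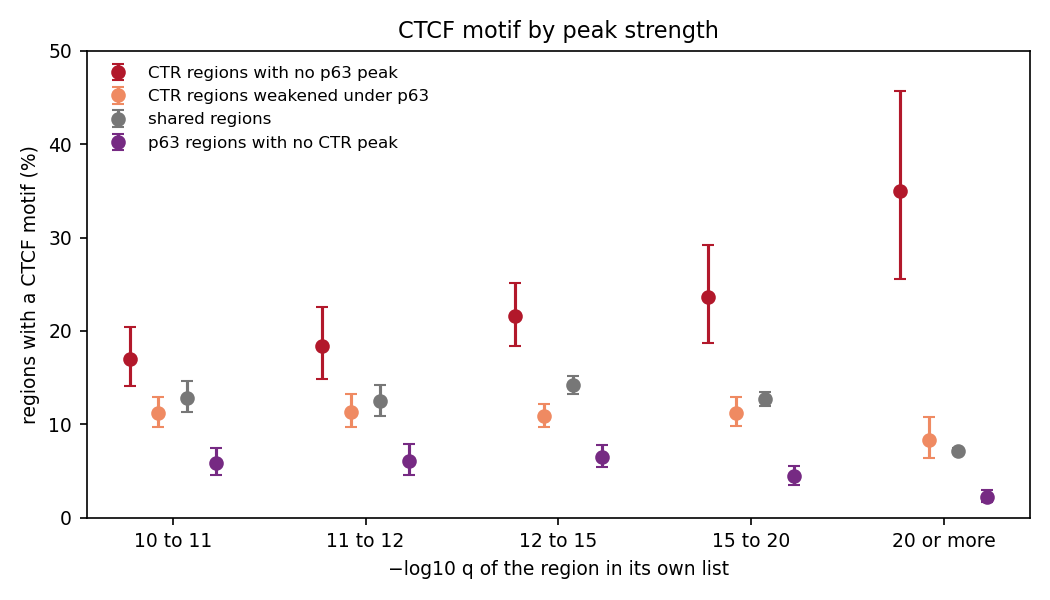
Share of regions with a CTCF motif within 100 bp of the summit (%, points with 95% Wilson intervals) by −log10 q, for 4 groups of regions. The CTR-only regions rise from 17.1% to 34.9%, while shared regions fall from 12.9% to 7.21% and p63 regions with no CTR peak stay at 6.495% or below.

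The CTCF matches sat beside the summit and not on it. Their centres were a median of 31 bp from the summit, and 367 of 379 (96.8%) were within 50 bp. In windows of 20 bp, 5.23% of CTR-only regions had a match centred at −40 bp and 5.77% at +40 bp, but 0.970% at the summit itself. Shared regions had the same shape at a lower level, with 2.24%, 2.63% and 0.300%. AP-1 matches behaved otherwise, with 5.98% of CTR-only regions in the window at the summit and 3.18% at 60 bp on either side.

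**Figure D4:**
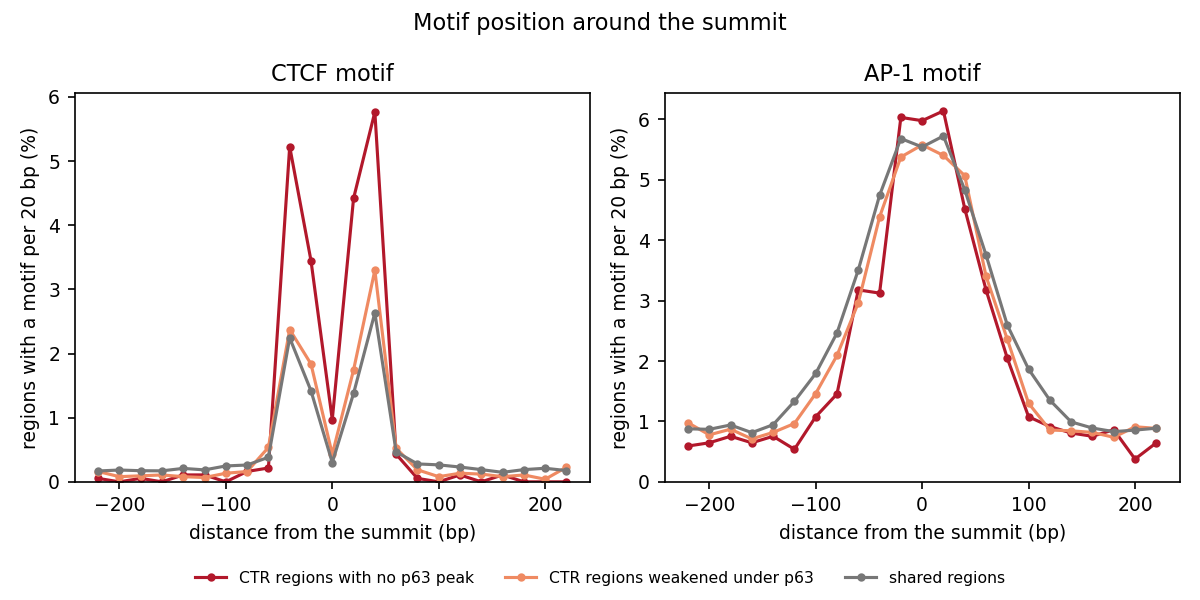
Share of regions with a motif centred in each window of 20 bp (%) by distance from the summit (bp), for the CTCF motif (left) and the AP-1 motif (right). The CTCF line of the CTR-only regions peaks at 5.77% at +40 bp and drops to 0.970% at the summit, and the AP-1 lines are highest near the summit.

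Among the 379 matches, 198 different 13-bp words were seen, and the most frequent, in 12 CTR-only regions (0.647%, 0.370 to 1.13%), was found in 7 weakened (0.0939%) and 15 shared regions (0.0317%). It was singled out after its values were seen. The flanking bases of some of these matches were alike, so 5 are printed below as 41 bp of GRCh38 in motif orientation, with the word in capitals. They come from WIPF1, the gene of a WASP-interacting actin regulator (chr2:174578129-174578169, plus strand), C18orf63 (chr18:74331584-74331624, minus strand), EREG, the gene of the growth factor epiregulin (chr4:74371016-74371056, plus strand), DOCK11, a gene of a guanine nucleotide exchange factor (chrX:118604078-118604118, plus strand), and NLRP12 (chr19:53808846-53808886, plus strand). Outside the word, C18orf63 shared 22 of 28 bases with WIPF1, EREG 21, and DOCK11 and NLRP12 17 each. The other 7 regions shared 5 to 10. No repeat annotation was used here.
WIPF1: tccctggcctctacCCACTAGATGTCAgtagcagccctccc
C18orf63: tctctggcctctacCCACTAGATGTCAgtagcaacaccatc
EREG: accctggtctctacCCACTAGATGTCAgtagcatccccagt
DOCK11: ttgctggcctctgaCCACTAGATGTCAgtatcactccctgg
NLRP12: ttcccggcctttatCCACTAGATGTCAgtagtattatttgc

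AP-1, the Jun and Fos dimer that binds TGANTCA, was the most frequent motif in the CTR-only regions. The summits of 602 of them had it within 100 bp (32.4%, 30.3 to 34.6%). The share was 34.2% in weakened and in shared regions and 42.1% (41.1 to 43.2%) in the weighted shared regions, so that the difference from shared regions was small without the weighting. Weighted in the same way, weakened regions had it in 35.6% (34.4 to 36.7%), an interval that overlapped that of the CTR-only regions. In p63 regions without a CTR peak the weighted share was 30.2% (28.6 to 31.9%). An AP-1 share below that of the weighted shared regions was thus not particular to the CTR-only regions. The difference of the CTR-only from the weighted shared regions was -9.70 percentage points, beside 10.8 for CTCF. Within 250 bp of the summit it was -12.9 points, beside 9.45 for CTCF, and with width added to the weighting the AP-1 share of the shared regions was 43.97%. The AP-1 difference was thus the larger of the pair in both of these settings. No chromosome of 23 had a share above the weighted one. By strength, the CTR-only share was set beside the shared regions without weighting. At a −log10 q from 10 to 11 the CTR-only share (35.01%) and the shared share (34.7%) were within each other's interval. From 15 to 20 they were 28.4% (23.2 to 34.3%) and 36.8% (35.8 to 37.9%). At 20 and above this unweighted order turned, with 37.3% (27.7 to 48.1%) against 33.1%, which was within the interval of the CTR-only regions. Against weighted shared regions of that strength it did not turn, with 37.3% against 43.96% (42.5 to 45.4%). This weighted share was also within the interval of the CTR-only regions, so neither order was settled at that strength. The CTCF and AP-1 motifs rarely met, with 16 regions (0.862%) holding both. TEAD, the partner of YAP, whose word is CATTCC, was found in 22.2% (20.4 to 24.1%) of CTR-only and 21.4% (20.5 to 22.3%) of weighted shared regions. None of the 3 motifs was found in 657 regions (35.4%).

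The p63 site, a 20-bp word with at most 3 mismatches, was rare. It was found in 10 CTR-only regions (0.539%, 0.293 to 0.989%), against 1.42% (1.18 to 1.70%) of the weighted shared regions. The weakened regions held it in 0.751% (0.579 to 0.974%), within the interval of the CTR-only regions, so its rarity was not particular to them. In p63 regions without a CTR peak it was found in 15.7% (14.4 to 17.04%) with the same weighting and in 19.1% without it. Windows 2 kb beside the CTR-only regions held it in 1.13% (0.838 to 1.53%). The promoter region of RPS6KL1 was one of the 10. The KLF word GGGNGNGGC, which factors such as KLF4 recognise, was found in 4.90% (4.01 to 5.98%), against 6.04% (5.54 to 6.59%) of weighted and 14.9% of all shared regions. The homeobox word TAATTA was in 6.41% (5.39 to 7.62%) against 4.44% (4.01 to 4.91%), and the NFI word TTGGCA in 15.2% (13.7 to 16.95%) against 13.4% (12.7 to 14.1%). The windows beside the CTR-only regions held TAATTA in 7.60% (6.79 to 8.49%), so that it was no more frequent at the summits than beside them, and the NFI word in 10.2%. The E-box CACGTG was lower, 1.83% (1.31 to 2.55%) against 2.69% (2.35 to 3.07%). The words of ETS, NRF1, CRE and YY1, which are common at CpG-rich promoters, were each in at most 0.216% of CTR-only regions. A match describes the sequence and does not show that the factor was bound.

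**Figure D5:**
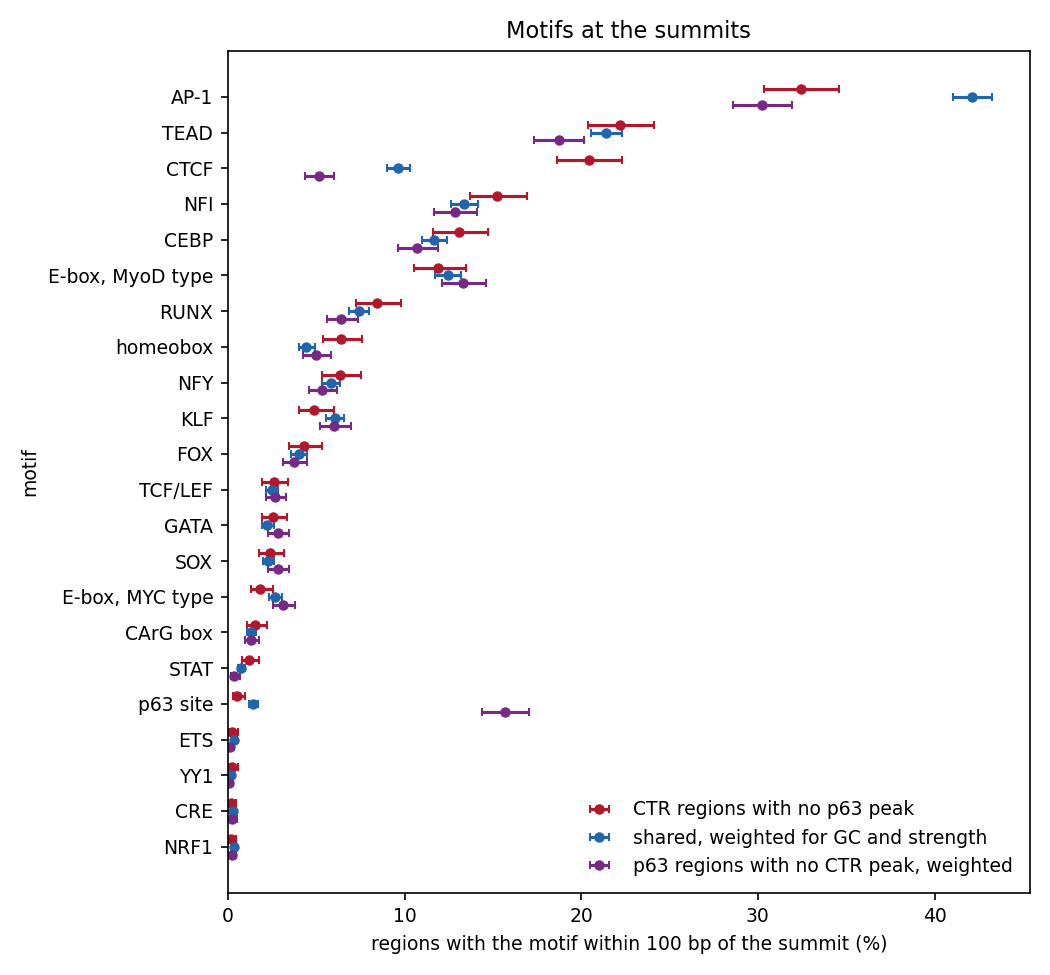
Share of regions with each of 22 motifs within 100 bp of the summit (%, points with 95% Wilson intervals) in CTR-only regions and, weighted to their GC content and strength, in shared regions and in p63 regions with no CTR peak. The CTCF points stand at 20.4%, 9.64% and 5.14%, the AP-1 points at 32.4%, 42.1% and 30.2%, and the p63 site points at 0.539%, 1.42% and 15.7%.

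Words of 8 bp, which need no motif model, also set CTCF words above and AP-1 words below the weighted shared regions. Of the 838 words present in at least 2% of CTR-only regions, those named here were chosen by the size of their difference from the weighted shared regions. CAGCAGAG was in 4.85% against 2.84%, AGAGGGCA in 4.74% against 2.83%, CTGGTGGC in 3.61% against 1.74% and CCACCAGG in 3.66% against 1.86%. These 4 words lie in the CTCF consensus or overlap it, and AGGGGGCA, AGGTGGCA, GGGCAGCA, GCAGCAGA and CTGCCACC, also among the first 10, overlap it or its flank. The fifth, CCTCCCAA, in 3.88% against 2.17%, is not part of it. The words furthest below the weighted shared regions contained or resembled the AP-1 site, such as ATGATTCA with 3.50% against 6.09% and ATGAGTCA with 9.11% against 11.7%. In percentage points these differences (-2.58 and -2.56) were larger than the 2.01 of CAGCAGAG, the word with the largest excess. Without weighting, shared regions held ATGATTCA in 3.89% and ATGAGTCA in 8.95%. Of this pair, only ATGATTCA was then lower in the CTR-only regions, so the AP-1 result depended in part on the weighting.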

How the data were processed

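ATAC-seq was measured in 4 samples, 2 CTR and 2 p63. The authors mapped reads to hg38 with Bowtie2 2.3.4.3 and called peaks with MACS2, whose version and options are not given in the sources used here, and 1 list per group was deposited. In it the authors give a fold (the ratio over local background), a −log10 p-value (kept as a score here) and a −log10 q-value per peak, and the summit position. Sequencing depth per sample is unknown. The lists hold 103700 CTR and 112294 p63 peaks. A difference in depth or quality between the libraries and a difference between the cells cannot be told apart.

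Regions had a −log10 q of at least 10 on 23 chromosomes. Overlaps (1 bp), distances to GENCODE 44 start sites, GC content and motifs (both strands, within 100 bp of the summit) were computed with Python 3.11.15, pandas 2.3.3, numpy 2.4.6 and pysam 0.24.0 on GRCh38. CTCF allowed 1 mismatch, the p63 site 3 and others 0. Reads at the summit were solved from fold and p-value within 0.001. Comparison regions were weighted by 10 bins of GC content and 5 of −log10 q. The code was tested on simulated data. The regions, gene lists and motifs were chosen with earlier results of these data known. Named genes were the strongest regions, the strongest promoter regions, genes with the most regions, genes of each list with 2 or more, the best CTCF matches, regions at the threshold and the fullest 1 Mb windows; 1 of the 10 promoter regions is not reported here. The authors' sample files of reads were not used here.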

Additional observations from a re-analysis of the deposited data

How the results depend on the processing

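No paired analysis was possible because each group has 1 pooled peak list, and leaving out a replicate was not possible for the same reason. Of 66 alternative values, 49 stayed within the interval of the value reported, or within 1.5 times it for the count. With a −log10 q of at least 20, 83 regions (0.258%) had no p63 peak, their CTCF share was 34.9%, their AP-1 share 37.3%, their p63 site share 0, their median GC content 45.8% and their median gap to a p63 peak 4980 bp; the Wilson interval of that 0 reaches 4.42%. Narrower and wider motif windows (50 and 250 bp) gave AP-1 shares of 23.3% and 38.9% and TEAD shares of 13.8% and 34.9%. CTCF with 0 and 2 mismatches gave 6.30% and 31.6%, and the p63 site with 2 and 4 gave 0.162% and 1.67%. A promoter window of 1 kb gave 9.59%, and GC content within 250 bp 41.9%. The CTCF share stayed above, and the AP-1 and promoter shares below, those of the weighted shared regions under each alternative for which the comparison was repeated, while the TEAD difference changed sign with the 250 bp window and the threshold of 20. At the threshold of 20, the weighted AP-1 and promoter shares lay within the intervals of the 83 regions. Weighting by width, the comparison with p63 regions and the expected numbers per chromosome and gene list were added after the values were seen. The low read number limits all values: with a median of 18 reads, a summit under 6 reads in the p63 list would not be called. On a higher local background more reads could be missed, and that number was not computed.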
